A study of Mus musculus with 20 samples.

Results

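The comparison described here set frontal cortex with 1 changed Tardbp allele against frontal cortex with none. Its members are 12 of the 20 libraries of the series: 6 from mice with the genotype Q331K/+ (heterozygous) and 6 from mice with the genotype +/+ (wild type), as the labels give them. The 8 Q331K/Q331K libraries were left out. Both groups were C57BL/6 mice of 5 months, untreated as far as the labels say, and they share every other labelled feature. The allele is a knock-in at the endogenous gene, so it is driven by the gene's own promoter in every cell type. The labels do not state how many founder lines or litters were sampled, nor that each library is a separate mouse, so p-values measure only the spread between these samples, which may be technical in part.

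Tardbp codes for TDP-43, a nuclear RNA-binding protein that binds GU-rich RNA, mostly in introns and 3' ends. It shapes splicing, keeps cryptic exons out of mature transcripts and holds up the level of many long neuronal transcripts. It also limits its own mRNA, so the Tardbp level is a known readout of TDP-43 function. Dominant changes in its C-terminal domain cause amyotrophic lateral sclerosis (ALS) and are found in frontotemporal dementia (FTD), and patients usually carry 1 changed allele. The heterozygous mouse is therefore the genotype nearest to the human one, and the question of the comparison is how large a difference in mRNA level 1 such allele could have made.

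Tardbp mRNA differed little between the groups. Levels are in CPM, that is, counts divided by the TMM-adjusted library size. Wild-type libraries, in the order of their replicate numbers, were at 224.3, 215.6, 219, 218.4, 208.8 and 214.5 CPM. Heterozygous libraries were at 233.5, 232.3, 233.4, 213.4, 227.4 and 230.2 CPM. Replicate 4 lay within the wild-type range and the other 5 heterozygous libraries lay above it. The mean was 216.8 ± 5.17 CPM in wild type (SD, n = 6) and 228.4 ± 7.68 CPM in heterozygotes (SD, n = 6). The log2 difference, here always heterozygous minus wild type, was 0.075 with a 95% interval from 0.015 to 0.14. That interval ended at 1.10-fold. The difference did not pass adjustment over all genes (edgeR quasi-likelihood test, Benjamini-Hochberg adjusted p = 1). A two-sided exact permutation test of log2 CPM gave p = 0.0173, where 0.00216 is the smallest p that its 924 permutations can give. Leaving out each library in turn gave log2 differences from 0.065 to 0.095, the highest without heterozygous replicate 4. Tardbp (chromosome 4, 148612382 to 148627019, minus strand) overlaps Masp2 on the opposite strand, but Masp2 was at 0.317 to 0.770 CPM in all 12 libraries.

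**Figure D1:**
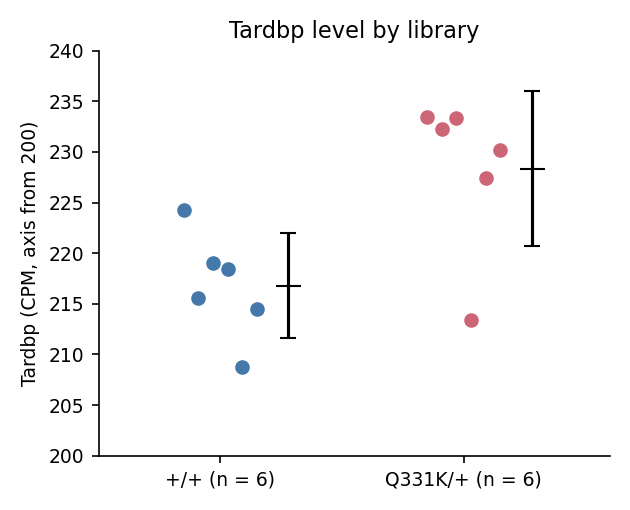
Tardbp level in CPM (vertical axis, starting at 200) in each wild-type (+/+) and heterozygous (Q331K/+) library. Points are libraries and bars are mean ± SD over 6 libraries: 5 heterozygous points lie above the wild-type maximum of 224.3 CPM, and replicate 4 lies at 213.4 CPM.

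No gene passed the test over the whole transcriptome. Of 16380 genes tested, 0 were called (0%) by edgeR at an adjusted p under 0.05, and 0 by DESeq2, by limma voom with quality weights and by limma-trend. At an unadjusted p under 0.05, edgeR gave 549 genes (3.35% of those tested), 314 of them higher in heterozygotes (1.92%) and 235 lower (1.43%). A uniform spread of p-values would give 819. DESeq2 gave 585, voom 692 and limma-trend 550. Wild-type and heterozygous levels did not overlap in 30 genes (0.183%), of which 12 were higher (0.0733%) and 18 lower (0.11%) in heterozygotes. Without heterozygous replicate 4 the count at an unadjusted p under 0.05 was 899.

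A missed call does not show that levels were alike, so each gene is described by the interval of its fold. The outer bound used below is the end of a gene's 95% interval that lies farther from no difference, written as a fold. A difference larger than that bound, in either direction, lay outside the interval. Over all genes the median outer bound was 1.12-fold, with a 25th percentile of 1.08 and a 75th of 1.24. The interval lay inside 1.2-fold for 11540 genes (70.5%), inside 1.5-fold for 14550 (88.8%) and inside 2-fold for 15867 (96.9%). Each of these statements holds gene by gene at 95%. Intervals widened so that all 16380 hold together lay inside 1.2-fold for 2646 genes (16.2%), inside 1.5-fold for 10628 (64.9%) and inside 2-fold for 13025 (79.5%).

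Precision went with the level of a gene. Among the 2197 genes with a mean of at least 100 CPM, the median outer bound was 1.07-fold and 2157 intervals lay inside 1.2-fold. Among the 7749 genes from 10 to 100 CPM the median was 1.09-fold, with 7427 inside 1.2-fold. Between 1 and 10 CPM the median of 3922 genes was 1.2-fold, and 3871 lay inside 2-fold. Below 1 CPM none of 2512 genes had an interval inside 1.2-fold, the median was 1.61-fold, and 2062 lay inside 2-fold. How much of that width was depth and how much spread between libraries was not tested. The 2266 genes that span at least 100 kb, the kind that depends most on TDP-43, had a median outer bound of 1.11-fold. In the 14114 shorter genes it was 1.12-fold. The median log2 differences were 0.001 in the long and 0.00063 in the shorter genes. The 2 sets were not matched for level: their medians were 32.1 and 16.1 CPM. Over all genes from 10 to 100 CPM, the range that holds both, the median bound was 1.09-fold.

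**Figure D2:**
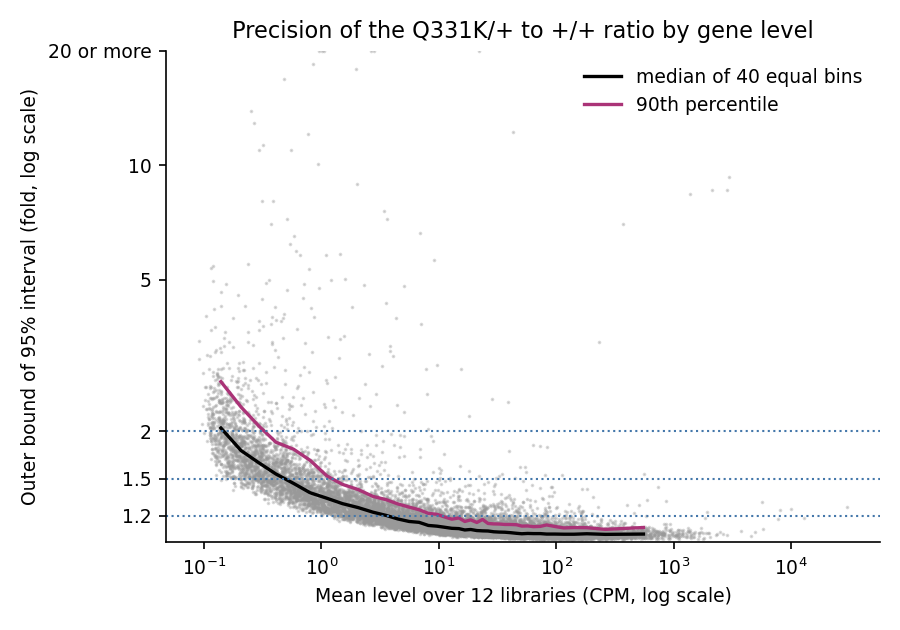
Outer bound of the 95% interval of the heterozygous to wild-type ratio (vertical axis, fold, log scale) against the mean level over 12 libraries (horizontal axis, CPM, log scale) for 16380 genes, with dotted lines at 1.2-, 1.5- and 2-fold. The black line is the median and the purple line the 90th percentile in bins of equal gene number; genes of 10 CPM or more mostly lie under 1.2-fold, and values above 20 are drawn at 20.

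By gene type, as GENCODE M21 names it, the 15051 protein-coding genes had a median outer bound of 1.11-fold and 74.5% of them lay inside 1.2-fold. The 349 antisense RNAs had a median of 1.5-fold, the 214 long intergenic noncoding RNAs 1.44-fold and the 174 processed pseudogenes 1.48-fold. Gene types were not matched for level, and the part of level in these widths was not tested. Reads of an antisense RNA or a pseudogene can be shared with its partner, so those values are uncertain as well as wide.

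Genes linked to ALS and FTD were bounded as closely as other genes of their level. All 34 listed genes were tested, all 34 intervals lay inside 1.2-fold (70.5% of all genes did), and the median outer bound was 1.07-fold, the same as over all genes of at least 100 CPM. Their median log2 difference was -0.0096, beside 0.00068 over all genes tested. None was called by edgeR, and at an unadjusted p under 0.05 there were 2, 1 in each direction, or 5.88% beside 3.35% of all genes.

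Sod1, a superoxide dismutase and the first gene to be linked to familial ALS, was at 135, 137 and 143 CPM in wild type (lowest, median, highest) and at 128, 139 and 142 in heterozygotes. Its outer bound was 1.06-fold, and the groups overlapped across most of their range. The mouse gene of C9orf72, listed as 3110043O21Rik, had medians of 19.6 CPM in wild type and 18.9 in heterozygotes and an outer bound of 1.08-fold. Grn, which codes for progranulin, and Tbk1, a kinase of selective autophagy, were bounded at 1.08-fold each. The widest member was Ang, a secreted ribonuclease at about 2 CPM, with 1.18-fold. It overlaps Rnase4 on the same strand. Nek1, a kinase of DNA repair and cilia, had the smallest p: 59.2, 61.7 and 62.2 CPM in wild type against 55.5, 58.5 and 60.5 in heterozygotes, a log2 difference of -0.073. It overlaps several predicted genes on both strands.

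Other RNA-binding proteins were as tight. Of 35 heterogeneous nuclear ribonucleoproteins and SR splicing factors, 33 lay inside 1.2-fold and 35 inside 1.5-fold, with a median outer bound of 1.07-fold and a median log2 difference of -0.0048. Hnrnpa1, which binds TDP-43 and carries ALS changes of its own, was at 205, 215 and 222 CPM in wild type and 207, 216 and 219 in heterozygotes, bounded at 1.05-fold. The exceptions were Hnrnpa3 at 1.43-fold and Hnrnpf at 1.33-fold. Hnrnpa3 was spread within both groups, from 71.7 to 143 CPM in wild type and from 68.8 to 139 in heterozygotes, so high and low libraries occurred in both genotypes.

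Transcripts known to depend on TDP-43 gave 28 of 30 intervals inside 1.2-fold, a median outer bound of 1.08-fold and a median log2 difference of -0.0069. None had an unadjusted p under 0.05 (edgeR), beside 3.35% of all genes. Sort1, the neuronal progranulin receptor whose splicing TDP-43 controls, was at 612, 627 and 643 CPM in wild type and 598, 604 and 653 in heterozygotes, bounded at 1.06-fold. Stmn2, the growth-cone protein that human neurons lose with TDP-43, was at 343, 368 and 372 CPM and 324, 352 and 373, bounded at 1.10-fold. Unc13a, the vesicle-priming protein with a TDP-43-dependent cryptic exon in human neurons, was bounded at 1.07-fold. The cryptic exons of those 2 transcripts are known from the human genes, and gene counts show no splice forms, so the bounds speak of total transcript only. The members outside 1.2-fold were Park2, the ubiquitin ligase parkin, at 1.34-fold and Cftr, a chloride channel at under 1 CPM, at 1.6-fold.

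Genes next to the edited locus were described as well. Within 2 Mb of either end of Tardbp, 53 other genes were tested, 39 lay inside 1.2-fold and 52 inside 2-fold, with a median log2 difference of -0.0072. Mtor, the growth kinase, was at 124, 126 and 129 CPM in wild type and 124, 125 and 137 in heterozygotes, bounded at 1.05-fold. Mfn2, which fuses mitochondria, and Kif1b, an axonal motor, were bounded at 1.06- and 1.05-fold. At an unadjusted p under 0.05 there were 2 of the 53 genes, or 3.77% beside 3.35% of all genes, a share near that of the whole table. Both were lower: Fbxo44, a ubiquitin ligase adaptor, at a log2 difference of -0.064, and the predicted gene Gm13093 at -0.56, with levels under 0.4 CPM. They were named after their values were seen.

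Neurofilaments and the neuronal cytoskeleton lay inside 1.2-fold in 29 of 30 genes, with a median log2 difference of -0.017. The light subunit Nefl was at 463, 483 and 510 CPM in wild type and 424, 448 and 502 in heterozygotes, a log2 difference of -0.079 (95% interval -0.16 to 0.0026). The heavy subunit Nefh was at 83.7, 89.5 and 95.1 CPM and 73.0, 84.6 and 89.9, a log2 difference of -0.11 (-0.20 to -0.013), bounded at 1.15-fold. The middle subunit Nefm had -0.090, bounded at 1.16-fold, and Nefl overlaps it on the opposite strand. The groups overlapped for all 3 subunits and none was called by edgeR. Peripherin (Prph), at under 1 CPM, was the 1 member outside 1.5-fold. The tightest member was the axonal kinesin Kif1a, which was at 1780, 1800 and 1820 CPM in wild type and 1750, 1810 and 1840 in heterozygotes, bounded at 1.04-fold. Other kinesins of the list were wider, among them Kif5a, itself an ALS gene, at 1.06-fold and Kif21a at 1.10-fold.

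Synaptic genes were bounded closely too. All 31 presynaptic genes and 25 of 26 postsynaptic genes lay inside 1.2-fold, with median outer bounds of 1.08-fold in both lists. Snap25, the membrane SNARE of vesicle release, was at 3700, 3860 and 3950 CPM in wild type and 3540, 3660 and 3850 in heterozygotes, bounded at 1.09-fold. Dlg4, the scaffold of the postsynaptic density, was bounded at 1.07-fold. Homer1, whose short form is induced by neuronal activity, was the exception at 1.41-fold. Its levels ran from 143 to 269 CPM in wild type and from 145 to 208 in heterozygotes. Ion channels gave 37 of 38 genes inside 1.2-fold, glutamate receptors 15 of 16 and GABA receptors 14 of 16. The widest receptor subunits were Grin3b and Gabre, at 1.55- and 1.57-fold, and both were under 1 CPM in each library.

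Markers of cell types carry the further limit that, in bulk tissue, fewer cells of a type and less RNA per cell cannot be told apart. Cortical markers were present in each library, with Cux1, a transcription factor of upper-layer projection neurons, at 75.6 to 90.7 CPM. Cux1 overlaps other genes on both strands. Parvalbumin interneurons, the fast-spiking inhibitory cells, gave 15 of 16 markers inside 1.2-fold and a median log2 difference of -0.032. Estimates below 0 made up 12 of 16 of these markers, beside 12 of 16 for upper-layer markers and 8106 of 16380 over all genes. The sign went with level: estimates were below 0 in 1511 of 2197 genes of at least 100 CPM. From 10 to 100 CPM, the range of the list's median of 57.5 CPM, they were so in 3964 of 7749 genes, and from 1 to 10 CPM in 1548 of 3922. Pvalb itself was at 48.6, 53.6 and 59.5 CPM in wild type and 46.5, 51.7 and 53.6 in heterozygotes, a log2 difference of -0.063 (-0.17 to 0.042) bounded at 1.12-fold. Kcnc2, a fast potassium channel of these cells, had -0.10 (-0.21 to -0.0034). Of the other interneuron markers 20 of 24 lay inside 1.2-fold, and of upper-layer markers 14 of 16. Deep-layer markers were wider, with 11 of 17 inside 1.2-fold and 17 inside 1.5-fold. At an unadjusted p under 0.05 there were 3 of these 17 genes (edgeR), 1 higher and 2 lower, or 17.6% beside 3.35% of all genes. Among them Deptor, an inhibitor of mTOR, had a log2 difference of -0.15 (-0.26 to -0.040) and overlaps Gm9920 on the opposite strand. Ntsr1, a neurotensin receptor of deep-layer neurons, had 0.31 (0.057 to 0.56), with wild-type replicate 4 at 4.10 CPM and the other 5 wild-type libraries at 6.50 to 7.07.

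Glial lists divided by cell type. All 22 microglial markers lay inside 1.2-fold, as did 21 of 22 astrocyte markers and 11 of 12 markers of oligodendrocyte precursors. Gfap, the intermediate filament of reactive astrocytes, was the exception among astrocyte markers: 57.5, 73.1 and 96.1 CPM in wild type and 64.1, 80.3 and 97.1 in heterozygotes, bounded at 1.34-fold. Cx3cr1, the fractalkine receptor of microglia, was bounded at 1.10-fold, and it lies among overlapping genes on both strands. Myelin was the loosest glial class, with 5 of 22 genes inside 1.2-fold and 22 inside 1.5-fold. Mbp, a main protein of compact myelin, was at 1640, 1840 and 2170 CPM in wild type and 1780, 1860 and 2500 in heterozygotes, bounded at 1.23-fold.

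All 22 myelin estimates were above 0, with a median of 0.080. The highest library for 21 of the 22 genes was heterozygous replicate 2, which also had the highest ependymal sum. Without that library the median was 0.0048 and 16 of 22 myelin intervals lay inside 1.2-fold. Without wild-type replicate 5, which had the lowest myelin sum, 10 lay inside it, and without any 1 of the other 10 libraries 2 to 4.

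Housekeeping machinery was bounded as tightly as the disease genes. Proteasome and autophagy genes each gave 32 of 32 inside 1.2-fold, with median outer bounds of 1.09- and 1.07-fold. Ribosomal proteins gave 77 of 78 and nuclear-coded subunits of the respiratory chain 72 of 74. Sqstm1, the autophagy receptor p62, was at 422, 426 and 433 CPM in wild type and 398, 419 and 431 in heterozygotes, bounded at 1.07-fold. Psmc5, an ATPase of the proteasome base, was at 137, 138 and 140 CPM in wild type and 128, 132 and 134 in heterozygotes. Those groups did not overlap, at a log2 difference of -0.073 (-0.12 to -0.024) that edgeR did not call. Estimates below 0 made up 29 of 32 proteasome genes, beside 3964 of the 7749 genes from 10 to 100 CPM, the range that holds the list's median level of 62.6 CPM. The lean was not particular to the proteasome: autophagy had 23 of 32 below 0, the respiratory chain 55 of 74 and presynaptic genes 25 of 31. Ribosomal proteins had 40 of 78 and myelin genes 0 of 22. Of genes of at least 100 CPM, 1511 of 2197 were below 0.

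Ndufa12, a subunit of respiratory complex I, stood apart from its list. Wild-type libraries were at 40.6 to 44.5 CPM. Heterozygous libraries were at 41.8, 67.6, 49.7, 66.9, 42.6 and 67.7 CPM in the order of their numbers, so 4 of 6 lay above every wild-type library and 2 within their range. The log2 difference was 0.40 (0.11 to 0.69), bounded at 1.62-fold and not called by edgeR.

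Stress and activity programmes were bounded less closely than the housekeeping lists above. Inside 1.2-fold lay 86.4% of heat shock, 80% of unfolded protein response and 70% of clock genes, beside 70.5% of all genes. The share was 32% for immediate early and 27.8% for glucocorticoid-induced genes. Over all genes from 10 to 100 CPM, the range that holds the median level of each of these lists, it was 95.8%. Of unfolded protein response genes 24 of 30 lay inside 1.2-fold, of heat shock genes 19 of 22, of clock genes 14 of 20, of immediate early genes 8 of 25 and of glucocorticoid-induced genes 5 of 18. Fos, the activity-induced transcription factor, was at 33.2, 40.9 and 60.8 CPM in wild type and 35.4, 44.1 and 51.4 in heterozygotes, bounded at 1.30-fold. Hspa5, the chaperone of the endoplasmic reticulum, was bounded at 1.35-fold. The median SD of log2 CPM among wild-type libraries was 0.22 for immediate early genes and 0.25 for glucocorticoid-induced genes, beside 0.093 over all genes. It was 0.11 for the unfolded protein response and 0.10 for heat shock and for clock genes. Interferon and antigen presentation genes, at a median level of 2.85 CPM, gave 8 of 29 inside 1.2-fold and 25 inside 2-fold.

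**Figure D3:**
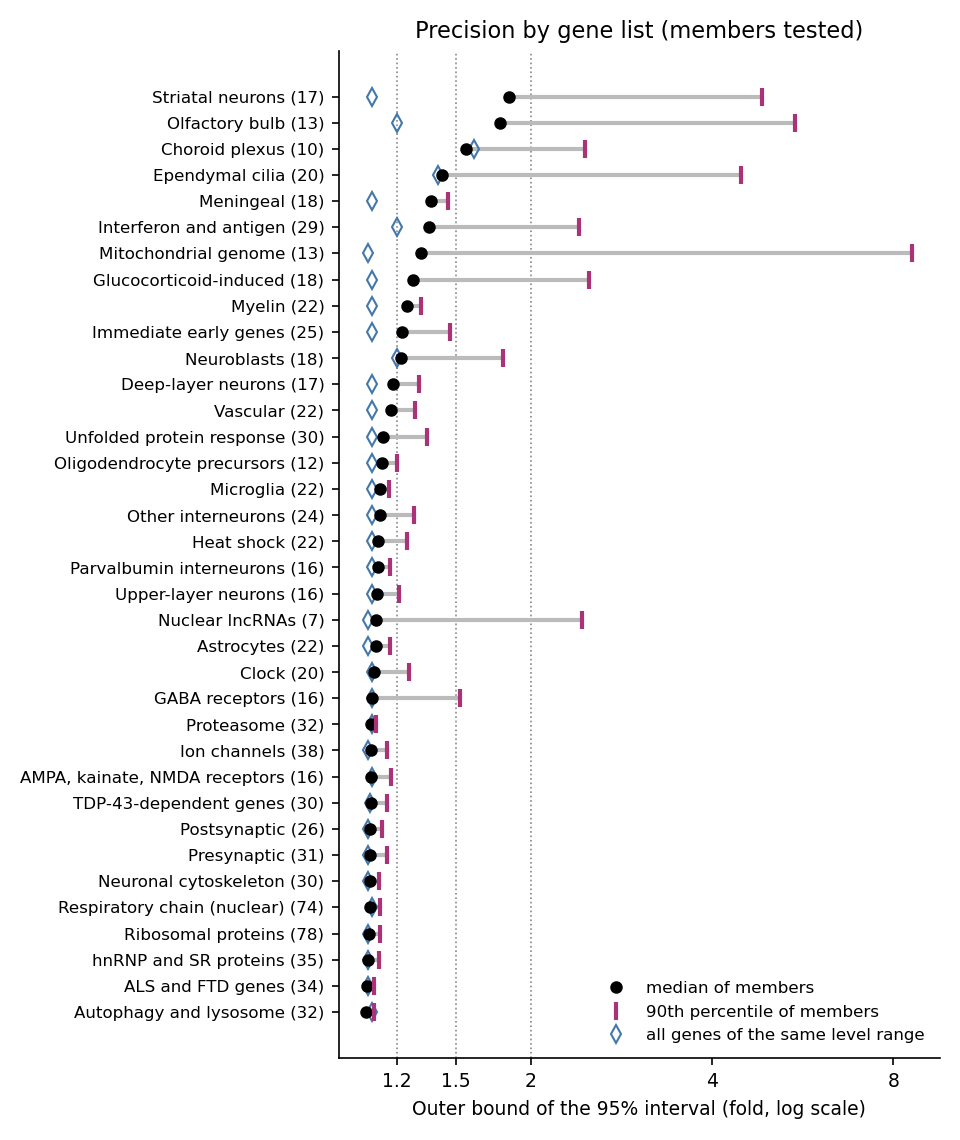
Outer bound of the 95% interval (horizontal axis, fold, log scale) in 36 gene lists, with the number of members tested in parentheses. Circles are the median member and bars the 90th percentile. Diamonds are the median, over members, of the median bound of all genes in each member's level range. In 16 lists at least 90% of members lie inside 1.2-fold, and in 11 under 50% do.

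Of 36 lists, 5 had all their members inside 1.2-fold, 16 had at least 90% and 11 had under 50%. The 5 were ALS and FTD genes, presynaptic genes, microglial markers, the proteasome and autophagy. Their median levels ran from 28.1 to 570 CPM, and of all genes of at least 10 CPM 96.3% lay inside 1.2-fold. The counts of lists hold gene by gene: by the simultaneous intervals, 18 of 34, 11 of 31, 3 of 22, 15 of 32 and 17 of 32 members of those 5 lists lay inside 1.2-fold, and 33, 29, 18, 32 and 32 inside 1.5-fold. The 11 were markers of striatum, olfactory bulb, choroid plexus, ependyma, meninges and neuroblasts, myelin, the mitochondrial genome, immediate early genes, glucocorticoid-induced genes and interferon genes. No list held a gene called by edgeR.

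Markers of striatum, olfactory bulb, choroid plexus, ependyma and meninges had the widest median outer bounds of all lists. A level-matched bound is the median, over members, of the median bound in each member's level range. The ranges are the coarse ones used above, cut at 1, 10 and 100 CPM. Median levels were 11.1 CPM in the striatal and 10.8 in the meningeal list, beside 31.5 over all genes from 10 to 100 CPM. The olfactory median was 1.23 CPM, beside 3.93 over all genes from 1 to 10 CPM. How much of the widths below was level within a range was not tested. The striatal median was 1.84-fold beside a level-matched 1.09, the olfactory 1.78 beside 1.2 and the meningeal 1.36 beside 1.09. The choroid median was 1.56 beside 1.61, the ependymal 1.42 beside 1.40 and the neuroblast 1.22 beside 1.2. Single libraries moved with some of these lists. Of 17 striatal markers 2 lay inside 1.2-fold and 10 inside 2-fold, with a median log2 difference of 0.31 and all 17 estimates above 0. Heterozygous replicate 1 was the highest of the 12 libraries for all 17 genes, and its summed striatal level was 1030 CPM where the other 11 libraries ran from 515.9 to 639.6. Drd1a, the dopamine receptor of direct-pathway neurons, was at 23.9 CPM in that library and at 7.84 to 13.1 in the others. Without it the median log2 difference was -0.014, the median outer bound went from 1.84- to 1.31-fold, and 15 of 17 genes lay inside 2-fold.

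Ependymal and cilia genes had a median log2 difference of 0.23, with 18 of 20 estimates above 0 and 5 genes higher at an unadjusted p under 0.05 (edgeR), or 25% beside 1.92% of all genes. Heterozygous replicate 2 was the highest library for 14 of the 20 genes, with a sum of 71.8 CPM beside 52.4 to 59.9 in the others, and without it the median was 0.10. Foxj1, the master regulator of motile cilia, was at 6.15 CPM there, and the other heterozygous libraries were at 3.51 to 4.13. Their part in the estimates of other genes was not tested gene by gene. With both libraries left out, a choice made after the data were seen, 0 genes were called by edgeR and the Tardbp difference was 0.061. Olfactory markers, at a median of -0.29, were spread among wild-type libraries, and without wild-type replicate 3 that median was 0.012.

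The mitochondrial genome gave the 6 genes of at least 100 CPM whose intervals did not lie inside 2-fold. Its 13 tested genes all had estimates below 0, at a median of -0.16, and 7 lay inside 2-fold. The 6 others were neighbours on the mitochondrial genome from mt-Co2 to mt-Nd4l (7013 to 10173). Their summed level was 26100, 3670, 12700, 174, 769 and 28300 CPM in the 6 wild-type libraries and 897, 8000, 12200, 3560, 19000 and 3920 CPM in the heterozygous ones, a 162-fold range. The sum of the other 7 genes ran from 60500 to 91600 CPM, a 1.52-fold range. High and low libraries occurred in both genotypes.

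**Figure D4:**
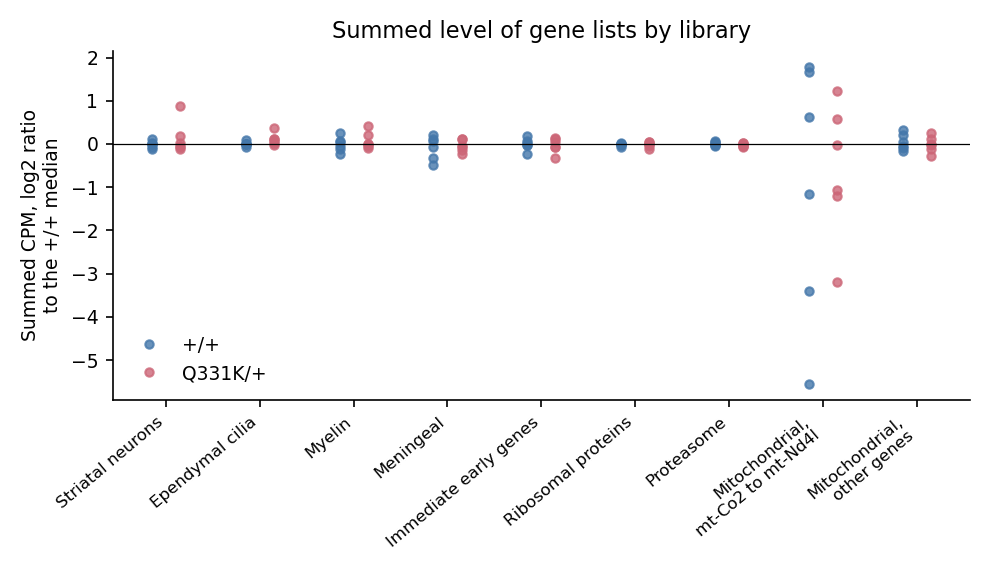
Summed CPM of 7 gene lists and 2 groups of mitochondrial genes in each library, as the log2 ratio to the wild-type median (vertical axis), with wild type in blue and heterozygous in red. The striatal point near 1 is heterozygous replicate 1, and the genes from mt-Co2 to mt-Nd4l range 162-fold while ribosomal and proteasome sums stay near 0.

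At levels of 10 CPM or more, 9582 of 9946 genes (96.3%) lay inside 1.2-fold and 12 did not lie inside 2-fold. Those 12 were the 6 mitochondrial genes, the striatal marker Rgs9, and Gm2606, Gm3200, Cxx1a, C230073G13Rik and 2900097C17Rik. In several of them 1 or 2 libraries set the width. Gm2606 was at 214 CPM in wild-type replicate 1, at 40.1 and 7.79 in heterozygous replicates 5 and 6, and at no more than 0.334 in the other 9 libraries. C230073G13Rik was at 0.0796 CPM in heterozygous replicate 1 and 2.48 in wild-type replicate 5, and at 10.7 to 22.7 elsewhere.

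The genes of smallest p were not called either, and they do not mark the largest estimate without a call. Among genes of at least 1 CPM the largest absolute log2 difference was 5.05, also not called. Col5a1, a fibrillar collagen, was at 23.9, 26.4 and 28.7 CPM in wild type and 28.9, 32.0 and 38.5 in heterozygotes. The groups did not overlap, and the log2 difference was 0.31 (0.17 to 0.45; edgeR adjusted p = 1). Col6a1, another collagen, had 0.23 and Tiam1, an activator of the GTPase Rac, 0.13. The other genes with estimates above 0 were Glis3, Lsp1, Arhgap6, Fam184b and Stxbp2, from 0.15 to 0.29. Of these, Glis3 did not overlap between the groups.

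Among estimates below 0, Zmat2, a spliceosome component, was at 199, 208 and 218 CPM in wild type and 186, 192 and 196 in heterozygotes, a log2 difference of -0.12 (-0.17 to -0.059). Spop, a ubiquitin ligase adaptor, was at 171, 177 and 185 CPM and 154, 165 and 168, a log2 difference of -0.12 (-0.18 to -0.061). Neither pair of groups overlapped, and neither did those of Cycs, Slc39a11 and Olfr316, named next. Groups did not overlap in 0.183% of all genes, and the genes here were picked for their small p. Cycs, cytochrome c, had -0.21, the manganese superoxide dismutase Sod2 -0.14, the microglial receptor Fcrls -0.16, the zinc transporter Slc39a11 -0.18, Tnnt2 -0.24 and the olfactory receptor gene Olfr316 -0.44. Olfr316 belongs to a multigene family that can share reads, and Col5a1, Tiam1, Fam184b, Glis3, Lsp1, Arhgap6, Spop and Slc39a11 overlap genes on the opposite strand, so those values are uncertain. The simultaneous intervals of all 16 genes and of Tardbp held 0. The outer bounds of these 17 genes ran from 1.10-fold for Tardbp to 1.59-fold for Olfr316.

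**Figure D5:**
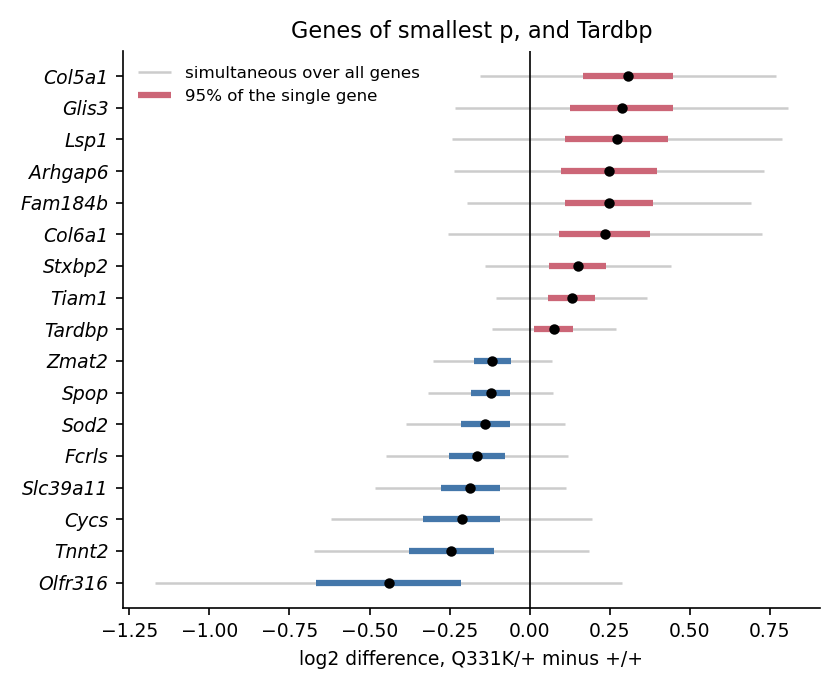
Log2 difference, heterozygous minus wild type (horizontal axis), of the 8 genes of smallest p in each direction and of Tardbp. Points are estimates, thick lines 95% intervals of the single gene and thin lines intervals simultaneous over 16380 genes; each thin line crosses 0.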

How the data were processed

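Libraries were made from polyadenylated RNA with a stranded kit, per the labels' protocols. The tools named in the submitters' processing notes are Trim Galore 0.4.3 and HISAT2 2.0.5, with build GRCm38. How reads were assigned to genes, and whether by strand, is not given in the sources used here. Overlapping genes are therefore named. The deposited values are raw whole-number counts per gene in 1 table of 25965 rows, of which 56 lack a gene identifier and were kept. Library totals lay between 75168829 and 96821696 counts in wild type and between 61282647 and 111440766 in heterozygotes, and mitochondrial counts took 8.68 ± 1.70% and 8.16 ± 1.41% (SD, n = 6 each). No 2 libraries of a group agreed within sampling noise (smallest chi-square per degree of freedom 18.8). That value takes in all genes tested, also the mitochondrial genes from mt-Co2 to mt-Nd4l, whose part in it was not tested.

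Counts of the 12 libraries were fitted alone in R 4.3.3 by the robust quasi-likelihood method of edgeR 4.0.16, after filterByExpr and TMM scaling. Intervals are 95% Wald intervals from that fit, with the simultaneous ones Bonferroni-adjusted, and the method was tested on simulated data. The threshold was a Benjamini-Hochberg adjusted p of 0.05. Of the genes tested, 98.5% were matched to GENCODE M21 for gene types and overlaps. Coordinates are those of the deposited table.

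The members, gene lists and margins were chosen with earlier results of these data known. Lists are described by counts and medians, without a test. Named genes are Tardbp, the 8 genes of smallest p in each direction with a mean of at least 1 CPM (predicted genes and clones were passed over, 1 among the lower ones), and from each list its first gene, its gene of smallest p and its widest, with further members as examples chosen after their values were seen. Some of the items that this rule names are not reported here. Alternatives were a DESeq2 1.42.0 fit, edgeR with DESeq2 size factors, a filter on 1 CPM in at least 6 libraries or none, limma 3.58.1 (voom with quality weights, and trend), the replicate number as a block, no robust estimation, all 20 libraries in 1 fit, each library left out in turn, and 1 added after seeing the data.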

Additional observations from a re-analysis of the deposited data

Results flagged for a closer look

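Among 302 groups of 6 libraries checked for a highest or lowest library far from the rest, 24 were flagged (7.95%), 20 for single genes and 4 for summed lists. Chance flags about 1 in 20 groups that were not picked by their values. The genes checked were the named ones, picked in part for a small p or for the widest interval of their list. The share flagged therefore cannot be set against that rate.

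Heterozygous replicate 1 had the most striatal signal. Its sum was 1030 CPM (522 to 640 in the other heterozygous libraries), with Drd1a at 23.9, Tac1 at 19.0, Six3 at 3.07 and Scn4b at 204 CPM. Its olfactory sum was 212 CPM, in a list that holds Synpr at a mean of 64.6 CPM. The olfactory markers Doc2g (3.68 CPM) and Eomes (0.0796 CPM) were not high in that library. Heterozygous replicate 2 was high in cilia genes, with an ependymal sum of 71.8 CPM, Foxj1 at 6.15 and Ccdc153 at 1.68. In heterozygous replicate 4, Tardbp was low at 213 CPM (227 to 233 in the others) and Rpl7a at 74.8. Heterozygous replicate 5 was high in Eomes (0.598 CPM) and Fcrls (23.2 CPM).

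Lcn2, an acute-phase protein, was at 9.33 CPM in heterozygous replicate 6 and at 0 to 0.494 CPM in the other heterozygous libraries.

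In wild type, replicate 1 stood apart in 9930013L23Rik (33.1 CPM) and was low in Glis3 (3.57 CPM). Replicate 2 was high in Fos (60.8 CPM) and replicate 3 in Deptor (51.5 CPM) and Dnali1 (0.325 CPM). Replicate 4 was high in H2-Ab1 (2.54 CPM) and low in Ntsr1 (4.10 CPM) and in the ribosomal sum (9110 CPM). Replicate 6 was low in Gria1 (318 CPM) and high in Grin3b (0.272 CPM).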

How the results depend on the processing

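The count of 0 called genes held in each of the 22 alternatives run, and the Tardbp log2 difference kept its sign in all of them, from 0.061 to 0.095. The count of simultaneous intervals inside 1.2-fold, 2646, was the least stable: it was 6250 with DESeq2, 1342 with the replicate block, 811 without the 2 heterozygous libraries of highest striatal and ependymal sums, and 1587 to 2071 when each library was left out in turn. Leave-one-out fits gave 412 to 899 genes at an unadjusted p under 0.05, the most without heterozygous replicate 4. The other counts of intervals inside a margin moved by less than 1.5 times. Counts of members inside 1.2-fold were followed in the gene lists and in the classes set by level, length, distance to Tardbp or predicted name. They moved by more than 1.5 times in 11 values under the other settings and not in 429. In leave-one-out fits they did so in 48 values and not in 480. Wider intervals follow in part from fewer libraries in those fits. The DESeq2 intervals used normal quantiles and the edgeR ones t quantiles, which are larger at the simultaneous level. How much of the gap between 6250 and 2646 came from that was not tested. Same-numbered libraries of the 2 groups did not vary together: correlations of their deviations ran from -0.11 to 0.098, and libraries 4 and 5 alone correlated best with their own number, so the numbers name samples and do not pair them. Of 115 named genes, 79 had an interval that held 0, and 30 of those changed sign in some alternative. Below 1 CPM no interval lay inside 1.2-fold, and the part of depth in that was not tested. Gene counts give no splice forms, and bulk tissue no cell numbers.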
